A study of Homo sapiens with 2 samples.

Results

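The tricarboxylic acid cycle enzyme genes described here are CS, IDH3A, IDH3B, OGDH, DLST, SUCLG1, FH, MDH1 and MDH2. They were taken by gene name from the deposited count table and make up 9 of its 58735 gene rows. The list does not hold every enzyme of the cycle, and succinate dehydrogenase and several partner subunits are given below as a separate list. RNA-seq was done on SUIT-2, a human pancreatic adenocarcinoma line, in a variant labelled as highly metastatic. There was 1 library of untreated cells, labelled NC, and 1 library of cells given dihydroartemisinin (DHA), an artemisinin derivative whose endoperoxide bridge is opened by ferrous iron or heme. The label NC leaves the use of a vehicle unstated, and the sources used here give neither the dose of DHA nor its duration. The series concerns genes linked to DHA and prognosis in pancreatic cancer, and the comparison asks which of these genes differed with treatment. With 1 library per group there is no replicate check, no p-value was computed, and every "higher" or "lower" compares these 2 libraries.

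The cycle runs in the mitochondrial matrix and oxidises the acetyl group of acetyl-CoA to carbon dioxide, passing electrons to NAD, as NADH, and to ubiquinone. Citrate synthase starts it, isocitrate dehydrogenase and the 2-oxoglutarate dehydrogenase complex release the carbon dioxide, and succinate-CoA ligase, fumarase and malate dehydrogenase return the carbon to oxaloacetate. Its intermediates also leave for lipid, heme and amino acid synthesis and are refilled from pyruvate and glutamine, a route that many pancreatic cancer cells use.

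Counted reads numbered 15452609 without and 14521101 with DHA, with 8.57% and 6.44% of them from the mitochondrial genome. Of 10 markers of ductal epithelial cancer cells, 7 had at least 50 reads without DHA and 5 with it, with summed levels of 3387 and 1320 CPM (counts in each library scaled to the same total). The keratin gene KRT8 led them with 29850 and 11840 reads. The cadherin gene CDH1 had 933 and 23 reads and TSPAN8 had 927 and 95. S100P, with 0 and 10 reads, and CEACAM6, with 3 and 12, went the other way. The protocol text of the labels names retina, but the photoreceptor markers CRX, SAG, GNAT1 and RCVRN had 0 reads in both libraries, and the summed level of 7 such markers was 1.69 and 1.03 CPM. The leukocyte markers PTPRC, CD3E and CD68 were at 0 in both. The endothelial cell list was 18.3 and 4.53 CPM, mostly from PECAM1 with 280 and 54 reads, while KDR had 0 and 9, VWF had 1 and 3 and CDH5 was at 0 in both. Fibroblast markers summed to 6.82 and 0.823 CPM, and acinar markers to 0.13 and 0.686 CPM. The part of these differences in the values below was not tested. In bulk RNA a smaller number of cells of one state and less RNA per cell cannot be told apart.

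None of the 9 genes differed 2-fold between the libraries, and the largest difference was a 1.34-fold lower ratio for FH. Once a trend with gene length and GC content was removed, IDH3A (log2 ratio 0.37) and MDH1 (-0.31) lay furthest out on each side. That removal raised the median over all tested genes by 0.082, and which of them lay further from 0 depends on whether this rise is taken off. Ratios are DHA over untreated, with counts scaled by TMM (trimmed mean of M values) and 0.5 reads added. Their 95% intervals come from the split of each gene's reads between the libraries (Clopper-Pearson) and cover counting error only. The size rule asked for 50 reads or more in either library, a difference of at least 2-fold and an interval excluding 1. Of 12064 genes tested, 17.0% passed this rule, 6.72% as higher and 10.3% as lower, against 0 of the 9 cycle genes in either direction. Each of the 9 had at least 417 reads in both libraries, and all 9 intervals lay inside 1.5-fold in either direction. Intervals excluded 1 for 8 of the 9 genes, 6 on the lower and 2 on the higher side, and for 75.3% of all tested genes. PCR can copy one molecule into several reads, which these intervals ignore, and the spread between cultures is unknown.

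CS, FH, MDH1, MDH2, IDH3B and SUCLG1 had log2 ratios below 0, and OGDH, DLST and IDH3A above it. That is 6 of 9 below 0, where 47.8% of tested genes were. The median over the 9 was -0.20, with a range from -0.42 to 0.37, and the median over all tested genes was 0.04. The whole range of the 9 genes fell between the lower and upper quartiles of all tested genes, which were -0.43 and 0.46. An absolute log2 ratio no larger than that of FH was found for 47.5% of tested genes, and for 50.6% of the 6551 with at least 500 reads. Summed over the 9 genes, there were 25686 untreated and 20872 DHA reads, or 0.166% (exact interval 0.164 to 0.168) and 0.144% (0.142 to 0.146) of each library. The sum had a log2 ratio of -0.22 (-0.25 to -0.19), and CS supplied 37.5% of it without and 35.7% with DHA.

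**Figure D1:**
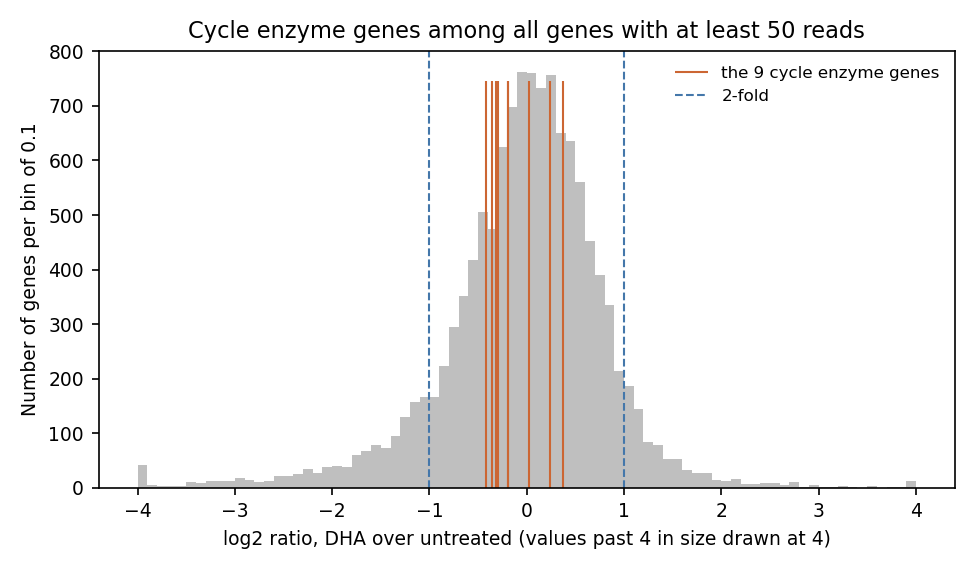
Distribution of log2 ratios (DHA over untreated, horizontal axis) for the 12064 genes that had 50 or more reads in either library, as number of genes per bin. Vertical lines mark the 9 cycle enzyme genes, which lie from -0.42 to 0.37 inside the central part of the distribution and within the dashed 2-fold lines.

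CS encodes citrate synthase, which joins acetyl-CoA and oxaloacetate (ENSG00000062485, chromosome 12, 56271699 to 56300392, minus strand, GRCh38). Its reads numbered 9638 untreated and 7452 with DHA, the most of the 9 genes in both. Its level was 626 CPM and 511 CPM, a log2 ratio of -0.29 (-0.34 to -0.25), or 18.3% lower in the DHA library. Annotated genes share 3.44% of its exon length. The CS pseudogene AC020904.2 had 37 and 42 reads.

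IDH3A and IDH3B encode the alpha (catalytic) and beta subunits of the NAD-dependent isocitrate dehydrogenase, a regulated step that makes 2-oxoglutarate. IDH3A (ENSG00000166411, chromosome 15, 78131498 to 78171949, plus strand) had 417 untreated and 510 DHA reads. Its ratio was the highest of the 9, 1.29-fold above the untreated library (1.13 to 1.47). IDH3A is also the least certain of them, since 38.9% of its exon length overlaps genes on the opposite strand, CIB2 (44 and 19 reads) and ACSBG1 (4 and 3 reads), and the sources used here do not state whether counting used strand. IDH3B (ENSG00000101365, chromosome 20, 2658395 to 2664219, minus strand) had 635 and 525 reads, a ratio 12.7% lower (log2 ratio -0.20, -0.37 to -0.03), and shares no exon with another gene. The subunits thus lay on opposite sides of 0, and their ratio of ratios, which needs no library scaling, was 1.48 (exact conditional 95% interval 1.24 to 1.77). With the length and GC trend removed, IDH3A was at 0.37 and IDH3B close to 0 at -0.045, a narrower gap. Both values include a rise of 0.082 in the median over all tested genes. The gamma subunit gene IDH3G, with 1186 and 930 reads and a log2 ratio of -0.27, lay with IDH3B (ratio of ratios 1.05, 0.910 to 1.22) and apart from IDH3A (1.56, 1.33 to 1.83).

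OGDH and DLST encode the E1 and E2 components of the 2-oxoglutarate dehydrogenase complex, which makes succinyl-CoA; the E2 core carries the lipoyl group. OGDH (ENSG00000105953, chromosome 7, 44606572 to 44709066, plus strand) had 1761 untreated and 1699 DHA reads. Its log2 ratio of 0.03 (-0.07 to 0.12) had the one interval of the 9 that included 0, and its sign turned with DESeq2 size factors (-0.012) and upper-quartile scaling (-0.038). DLST (ENSG00000119689, chromosome 14, 74881891 to 74903745, plus strand) had 1982 and 2221 reads, a 1.18-fold higher ratio (1.11 to 1.26). No exon of either gene is shared, and the processed pseudogene DLSTP1 had 14 and 7 reads. DLST stood above OGDH by a ratio of ratios of 1.16 (1.06 to 1.27). The shared E3 component gene DLD had 3013 and 2129 reads and a log2 ratio of -0.42 (-0.50 to -0.34). OGDH and DLST were thus 1.37-fold (1.25 to 1.49) and 1.59-fold (1.46 to 1.72) above DLD in their ratios.

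SUCLG1 encodes the alpha subunit of succinate-CoA ligase, the step of substrate-level phosphorylation (ENSG00000163541, chromosome 2, 84423523 to 84460045, minus strand). It had 1358 untreated and 1127 DHA reads, a log2 ratio of -0.19 (-0.31 to -0.08). The alpha subunit pairs with either an ADP-forming beta subunit, from SUCLA2, or a GDP-forming one, from SUCLG2, and these genes differed from each other. SUCLA2 had 860 and 693 reads, and its ratio could not be separated from that of SUCLG1 (ratio of ratios 1.03, 0.905 to 1.17). SUCLG2 had 925 and 375 reads and was the one gene among these 9 and the other 8 cycle genes to pass the size rule, 2.33-fold lower in the DHA library (2.07 to 2.64). SUCLG1 was 2.05-fold (1.77 to 2.37) and SUCLA2 1.99-fold (1.70 to 2.33) above SUCLG2 in their ratios, pairs that were chosen with these values known.

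FH encodes fumarase, which hydrates fumarate to malate (ENSG00000091483, chromosome 1, 241497603 to 241519761, minus strand). It had 2626 untreated and 1856 DHA reads, 170.6 and 127 CPM. This was the lowest of the 9 ratios, -0.42 (-0.51 to -0.34) on the log2 scale, or 25.3% lower. It was -0.19 once the trend with gene length and GC content was removed, and the ratios of MDH1 (-0.31), CS (-0.27) and MDH2 then lay below it. MDH2, the mitochondrial malate dehydrogenase that closes the cycle (ENSG00000146701, chromosome 7, 76048051 to 76067508, plus strand), had 4736 and 3609 reads, a log2 ratio of -0.31 (-0.38 to -0.25), or -0.21 with that trend removed. MDH1, the cytosolic isoenzyme that works in the malate-aspartate shuttle (ENSG00000014641, chromosome 2, 63588609 to 63607197, plus strand), gave 2533 and 1873 reads, with a log2 ratio of -0.36 (-0.44 to -0.27). The mitochondrial and cytosolic isoenzymes did not differ beyond counting error in their ratios (MDH2 over MDH1, ratio of ratios 1.03, 0.957 to 1.11).

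**Figure D2:**
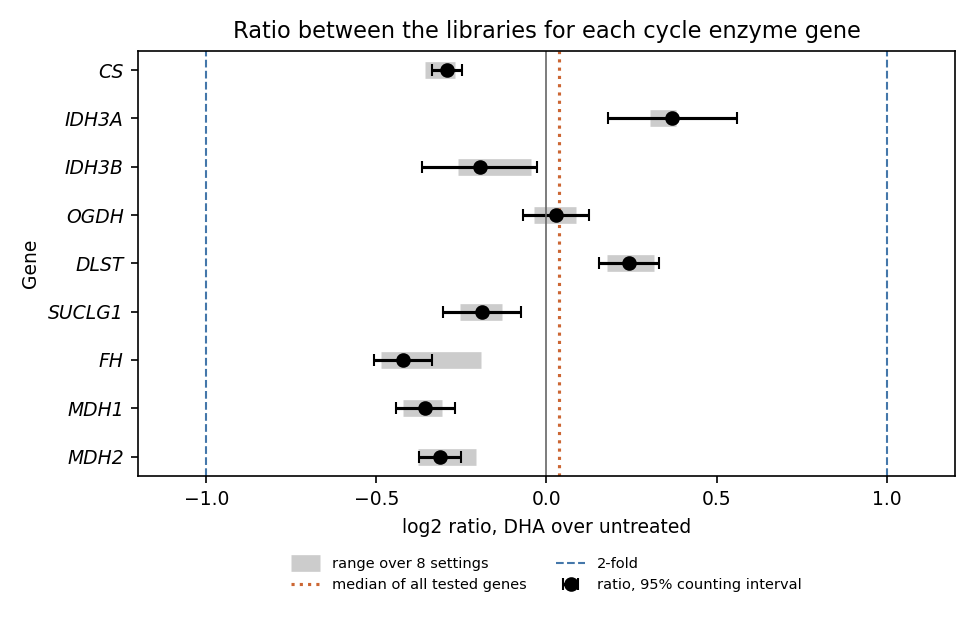
Log2 ratio of the DHA over the untreated library (horizontal axis) for each of the 9 genes. Points carry 95% counting intervals, grey bands span the main and 7 other settings of scaling, reads added and trend removal, the dotted line is the median of all tested genes, and dashed lines mark 2-fold. IDH3A and DLST lie above 0, OGDH on it, and the other 6 genes below.

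Among the 36 pairs of the 9 genes, the ratio of ratios had a 95% interval excluding 1 for 25, and for 17 when the intervals were widened to hold over all 36 pairs together. All 17 involved IDH3A, DLST or OGDH. Of them, 6 rest on IDH3A with its shared exons. Of the 15 pairs among CS, IDH3B, SUCLG1, FH, MDH1 and MDH2, 0 had such a widened interval excluding 1. The widest gap was that of IDH3A over FH, 1.73 (1.497 to 2.0007), but after removal of the length and GC trend it was that of IDH3A (log2 ratio 0.37) over MDH1 (-0.31). DLST over FH was 1.59 (1.46 to 1.73) and DLST over CS 1.45 (1.35 to 1.55), and neither rests on a gene with shared exons above 3.44% of its length. The grouping into genes above and below was read from these same values.

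Per length of exon, the genes spanned a 24.7-fold range without DHA and a 15.6-fold range with it. Levels are given as RPKM, the scaled reads per kb of exon union, with exact Poisson intervals. In the untreated library CS was highest at 97.8 RPKM (95.9 to 99.8), followed by MDH2 at 84.5 (82.1 to 86.9) and FH at 79.6 (76.6 to 82.7), the last pair with overlapping intervals. MDH1 was at 33.0 RPKM, DLST at 28.3, OGDH at 22.0 (20.9 to 23.0) and SUCLG1 at 20.6 (19.5 to 21.7), the last pair again overlapping. IDH3B was at 16.1 RPKM, and IDH3A was lowest at 3.96 (3.59 to 4.36). By exon union, the mitochondrial MDH2 was 2.56-fold above the cytosolic MDH1 without DHA and 2.64-fold with it. This gap was smaller with the other gene length given below.

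In the DHA library the order from the top was CS (79.9 RPKM), MDH2 (68.0), FH (59.4), DLST (33.5), MDH1 (25.8), OGDH (22.4), SUCLG1 (18.04), IDH3B (14.03) and IDH3A (5.12), and no neighbours in this order had overlapping intervals. DLST and MDH1 had exchanged places, and the excess of IDH3B over IDH3A was 4.05-fold without DHA and 2.74-fold with it. These orders depend on the length used, since the exon union of a gene with many transcripts is longer than most of its RNAs (33 annotated transcripts for CS, 24 for IDH3A, 3 for FH). With the length of the principal coding transcript, a choice added after the values were seen, CS, MDH2, IDH3B and IDH3A kept their ranks in both libraries. MDH1 then stood at 99.7 and 77.9 RPKM, above FH at 94.9 and 70.9. MDH2 was at 139.3 and 112.1 RPKM, so its excess over MDH1 was smaller than by exon union. SUCLG1 stood at 59.8 and 52.4 RPKM, against 45.4 and 53.7 for DLST.

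**Figure D3:**
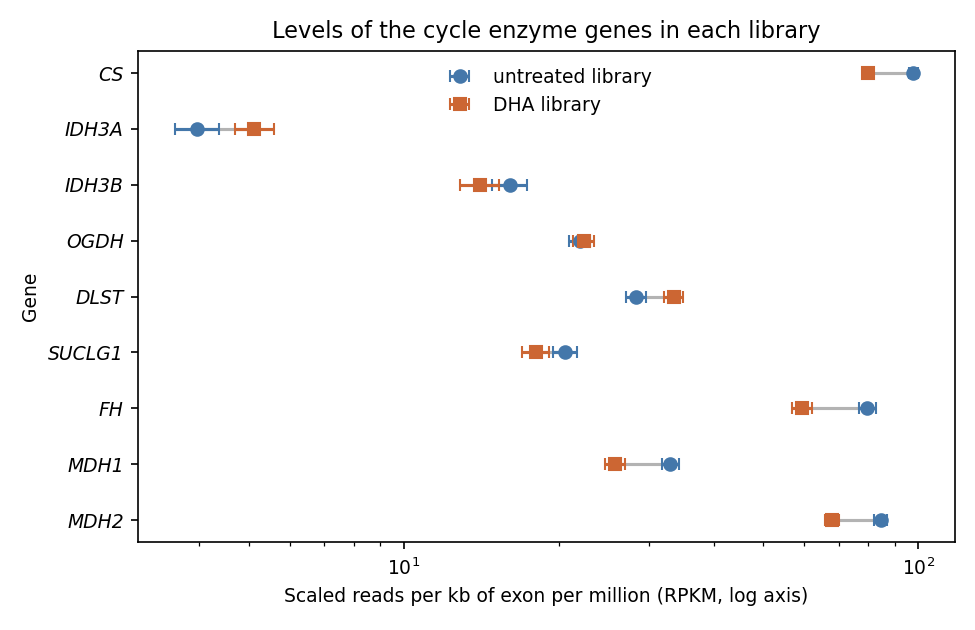
Level of each of the 9 genes in the untreated (circles) and DHA (squares) library, as RPKM on a log axis, with exact Poisson intervals of the counts. CS, MDH2 and FH are highest in both libraries and IDH3A lowest, and the range over the 9 genes is wider than the difference between the libraries for any of them.

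Promoter sequence is shown for DLST and IDH3A, the genes with the highest ratios, and for CS and FH, which had ratios below 0 and long stretches free of exons. RefSeq windows (GRCh38.p14, 250 bases before to 50 after each annotated start) were found for 8 of the 9 genes, with 2 windows for MDH1, and not for OGDH. The stretches before the start that lie outside every GENCODE exon are printed for these 4 genes, 5′ to 3′ on the gene's strand, with capitals marking the GC box GGGCGG, the CCAAT box CCAAT and the cAMP-response core TGACG on either strand.
IDH3A, chr15:78149112-78149320, plus strand: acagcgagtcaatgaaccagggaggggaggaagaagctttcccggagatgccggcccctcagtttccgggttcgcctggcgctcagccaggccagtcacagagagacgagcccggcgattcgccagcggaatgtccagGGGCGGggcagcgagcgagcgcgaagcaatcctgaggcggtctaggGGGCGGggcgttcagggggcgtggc
DLST, chr14:74881666-74881890, plus strand: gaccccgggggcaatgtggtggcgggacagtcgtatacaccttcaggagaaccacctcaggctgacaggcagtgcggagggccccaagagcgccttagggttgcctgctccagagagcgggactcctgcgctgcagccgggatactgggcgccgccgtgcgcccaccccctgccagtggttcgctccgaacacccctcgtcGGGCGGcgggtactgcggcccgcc
CS, chr12:56300393-56300580, minus strand: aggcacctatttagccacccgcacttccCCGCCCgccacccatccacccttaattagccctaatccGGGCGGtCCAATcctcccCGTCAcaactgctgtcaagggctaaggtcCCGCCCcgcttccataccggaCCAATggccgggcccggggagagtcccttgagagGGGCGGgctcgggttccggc
FH, chr1:241519762-241520005, minus strand: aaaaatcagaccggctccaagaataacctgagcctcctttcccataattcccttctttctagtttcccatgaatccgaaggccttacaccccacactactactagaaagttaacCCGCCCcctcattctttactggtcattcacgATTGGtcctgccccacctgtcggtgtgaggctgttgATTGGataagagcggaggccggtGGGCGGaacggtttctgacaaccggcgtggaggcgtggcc
The GC box, which Sp1 family factors bind, was in the windows of CS, DLST, FH and IDH3A, 4 of 8 genes, and in 45.0% of all 35116 windows. The CCAAT box, bound by NF-Y, was in those of CS, FH, MDH1 and SUCLG1, again 4 of 8, and in 34.6% of all. The ETS motif CCGGAAG was in the windows of DLST, IDH3B and MDH2 (3 of 8, against 10.3% of all), and TGACG in those of CS, IDH3B and MDH2 (3 of 8, against 24.6%). The antioxidant response core TGACNNNGC was in that of SUCLG1 alone (13.3% of all). The letters of the palindromic NRF1 site (1.24% of all), the TATA box TATAAA (11.5%), the AAGGTCA core of estrogen-related receptors (3.92%) and the E-box CACGTG (7.26%) were in 0 of the 8. All motifs were searched on both strands over the whole window of each gene, and a match describes letters only. The antioxidant core can overlap TGACG, as both begin with the same letters.

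MDH2 starts 47 bases from the start of STYXL1, which runs the other way. STYXL1 had 369 untreated and 406 DHA reads, a log2 ratio of 0.22 (0.01 to 0.42), so the neighbours lay on opposite sides of 0. The other genes starting within 1000 bases of the GENCODE start of one of the 9 on the opposite strand, CIB2 at IDH3A and the antisense genes AC073896.2 at CS and AL049712.1 at IDH3B, had under 50 reads in both libraries. For IDH3A that GENCODE start, 78131498, lies far upstream of the RefSeq start, 78149362, so CIB2 does not neighbour the IDH3A promoter printed here.

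The other enzymes of the cycle were close to the 9 genes, apart from SUCLG2. Of these 8 further genes (IDH3G, DLD, SUCLG2, SUCLA2 and SDHA to SDHD), 1 was past the size rule as lower and 0 as higher, 8 had log2 ratios below 0, and the median was -0.26. The shares over all tested genes, for this list and those that follow, were 6.72% higher, 10.3% lower and 47.8% below 0. The succinate dehydrogenase genes, which also form respiratory complex II, had log2 ratios of -0.17 (SDHA), -0.26 (SDHB), -0.32 (SDHC) and -0.20 (SDHD). Of 4 genes for assembly factors of that enzyme, 0 were past the size rule as higher and 2 as lower, SDHAF3 with 287 and 99 reads (2.74-fold, 2.18 to 3.49) and SDHAF4 with 66 and 22 reads (2.80-fold, 1.73 to 4.83), while SDHAF1 and SDHAF2 had -0.17 and 0.19.

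Pyruvate enters through its carrier and the pyruvate dehydrogenase complex, whose kinases switch it off and whose phosphatases switch it on. The list of 14 genes also holds the pyruvate carboxylase gene PC, with 1020 and 642 reads and a log2 ratio of -0.59 (-0.73 to -0.45). Of the 14 genes 2 were past the size rule, both kinases and both lower, and the median was -0.22. PDK2 had 398 and 99 reads, 3.79-fold lower (3.05 to 4.79), with 38.6% of its exon length shared with SAMD14. PDK4 had 344 and 124 reads, 2.62-fold lower (2.13 to 3.25). The other kinase genes did not pass, PDK1 with 310 and 572 reads and a log2 ratio of 0.96 (0.76 to 1.17) and PDK3 with -0.31. Of the phosphatase genes, PDP1 had 1049 and 1697 reads and a log2 ratio of 0.77 (0.66 to 0.89), PDP2 had 0.16, and the regulatory subunit gene PDPR had -0.02. PDK1 reached 1.07 after removal of the length and GC trend, a value that includes the rise of 0.082 in the median over all tested genes. The subunit genes PDHA1, DLAT and PDHX had 0.01, -0.08 and -0.13, PDHB had -0.61, and the carrier genes MPC1 and MPC2 -0.45 and -0.76.

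Entry from glutamine and glutamate was the one list with a median above 0, at 0.16 over 6 genes with at least 50 reads. GOT1, the cytosolic aspartate aminotransferase, had 1051 untreated and 2175 DHA reads, 2.18-fold higher (2.03 to 2.35), with 19.3% of its exon length shared with AL391684.1. Its mitochondrial counterpart GOT2 had 6755 and 4636 reads and a log2 ratio of -0.46 (-0.52 to -0.41). The glutamine transporter gene SLC1A5 and the alanine aminotransferase gene GPT2 had 0.57 and 0.48, and the glutamate dehydrogenase gene GLUD1 had -0.17. The list thus held 1 gene past the size rule as higher, 0 as lower and 5 others.

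The list of counterparts of cycle enzymes, mostly cytosolic or NADP-linked, had a median of -0.43 over 8 genes, with 0 past the size rule as higher and 1 as lower, the malic enzyme gene ME3 (374 and 145 reads, 2.44-fold lower, 2.01 to 2.98). ACO1 and IDH1, the cytosolic enzymes, had -0.86 and -0.79, while ME2, the mitochondrial NAD-dependent malic enzyme, and PCK2, the mitochondrial phosphoenolpyruvate carboxykinase, were above 0 at 0.35 and 0.12, and the other 6 genes lay below it. Mitochondrial carriers of cycle intermediates had a median of -0.53 over 6 genes. None passed the rule as higher and 1 as lower, the dicarboxylate carrier gene SLC25A10, with 222 and 61 reads (3.43-fold, 2.59 to 4.65). AC139530.2, on the same strand, shares 46.6% of the exon length of SLC25A10, so strand cannot tell their reads apart there. The carriers of the malate-aspartate shuttle, SLC25A11, SLC25A12 and SLC25A13, had -0.52, -0.70 and -0.24.

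DLST works only with lipoate attached, and SDHB holds iron-sulfur clusters. Of 13 genes for making these cofactors with at least 50 reads, 1 was past the rule as lower, 0 as higher, and the median was -0.19. It was the lipoyl transferase gene LIPT2 (82 and 34 reads, 2.26-fold, 1.51 to 3.51; log2 ratio -0.86 after removal of the length and GC trend). The lipoyl synthase gene LIAS had 0.22, and the cluster genes ISCU, ISCA1 and IBA57 had 0.51, 0.65 and 0.69. However, 8 of the 13 genes lay below 0, among them the cluster genes BOLA3 (-0.75), GLRX5 (-0.62), NFU1 (-0.48) and ISCA2 (-0.44). Of 6 measured paralogs and accessory genes of the 2-oxoacid dehydrogenases, 0 passed the rule. The branched-chain complex genes DBT and BCKDHB had 0.95 and -0.81, the branched-chain phosphatase gene PPM1K had 0.98, and the 2-oxoadipate dehydrogenase gene DHTKD1 had -0.32. PPM1K reached 2-fold (1.00) with the length and GC trend removed, where the median over all tested genes rose by 0.082.

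Over the 8 lists together, 65 of 75 genes had at least 50 reads, 1 was higher, 8 were lower and 56 did not pass the rule, with a median of -0.26. Among all 12064 tested genes, 6.72% were higher and 10.3% lower by the same rule. The 3 listed genes whose log2 ratio was nearest to the median of the 9 cycle genes were SDHD, FDXR and OAT, within 0.0133 of it. That likeness rests on 1 ratio from 2 libraries.

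**Figure D4:**
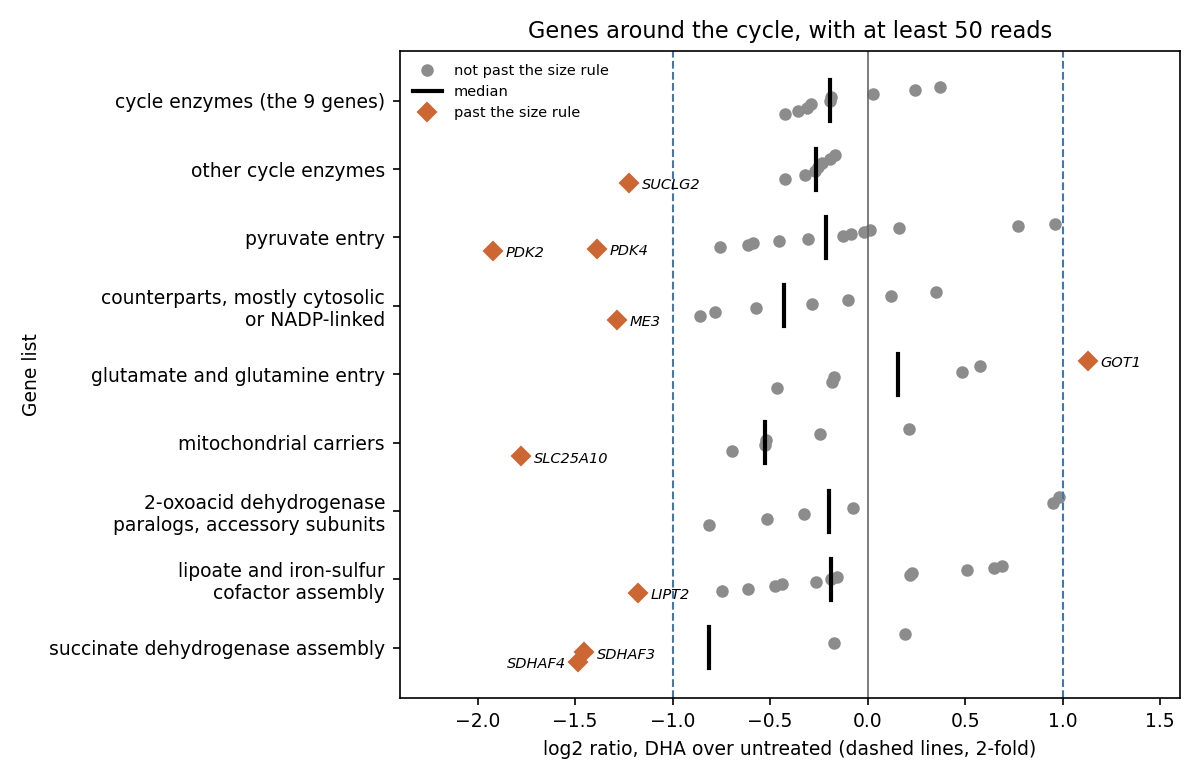
Log2 ratio (DHA over untreated, horizontal axis) of genes with at least 50 reads in the 9 cycle enzyme genes and the 8 surrounding lists, 1 point per gene. Black bars are list medians and diamonds are genes past the size rule. The 9 cycle genes have no diamond, and GOT1 is the diamond on the higher side.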

How the data were processed

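Per the file headers, the authors deposited 1 table of raw read counts by gene, 1 column a library, with a length for each gene. Per the labels' protocols, Trizol RNA was made into Illumina libraries. The submitters' processing notes list the mouse build mm8, but all 58735 gene rows had the identifier, name, coordinates, strand and exon-union length of human GENCODE 29 (GRCh38). The aligner, counting tool, strand use and treatment of multiply mapping reads were not given in the sources used here. Counts were scaled by TMM (edgeR 4.0.16, R 4.3.3; factors 0.996 and 1.00), 0.5 reads were added, and intervals were computed in SciPy 1.17.1. Ratios of ratios used the exact conditional interval of the 2 x 2 read counts, 95% per pair. The code was tested on simulated data. All 9 genes are named, as are the list genes past the size rule, or else those with the largest ratios. Further list genes were named after their values were seen, namely the remaining subunits, shuttle carriers, isoenzymes, phosphatases, pyruvate carboxylase and cofactor genes. So were the exon-sharing and divergent neighbours. The members and lists were chosen with earlier results of these data known. Some genes first placed on these lists are not reported here and stand in no list count or median. Alternatives were total-read, DESeq2 1.42.0 and upper-quartile scaling, TMM without mitochondrial genes, other read minimums, reads added and fold thresholds, and removal of a loess trend (span 0.3) on length and GC content. A table of protein sequences was not used here.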

Additional observations from a re-analysis of the deposited data

How the results depend on the processing

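The count of cycle genes past the size rule was 0 under every alternative run. Over all genes, 811 were higher and 1245 lower, against 1297 and 2126 with a minimum of 10 reads, 431 and 379 with 500 reads, 1432 and 2386 with 1 read, and 2284 and 2320 at 1.5-fold. The number of cycle genes below 0 was 6, or 7 with DESeq2 size factors and upper-quartile scaling, where OGDH was at -0.012 and -0.038. Their median ran from -0.26 (upper-quartile scaling) to -0.13 (trend removed). The median over all tested genes moved the same way, from 0.04 to -0.03 with upper-quartile scaling and to 0.12 with the trend removed. Of 63 single-gene ratios under alternatives, 4 moved beyond counting error, 2 changed sign within it (OGDH) and 57 did neither. The 4 kept their sign, namely CS (-0.36) and MDH2 (-0.38) with upper-quartile scaling, and FH (-0.19) and MDH2 (-0.21) with the trend removed. These moves include the shift of the median over all tested genes, -0.065 with upper-quartile scaling and 0.082 with the trend removed. Of the list genes, none changed its call with another scaling or other reads added. With the trend removed 3 were higher and 7 lower, as PDK1 (1.07) and PPM1K (1.00) passed the rule and LIPT2 (-0.86) did not. These values also include the rise of 0.082 in the median over all tested genes. Leaving out genes with over 50% shared exon length, an alternative chosen after seeing the data, gave 796 higher and 1228 lower. No paired analysis was possible because there is 1 library per group. Depth limits IDH3A most, with an interval 0.38 wide on the log2 scale, against 0.09 for CS.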
